A study of Mus musculus with 6 samples.

Results

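The 10 genes Cldn5, Flt1, Ly6c1, Slco1a4, Slc2a1, Mfsd2a, Abcb1a, Pltp, Apold1 and Itm2a are genes of brain endothelium and of the blood-brain barrier. They were chosen by name, from the list of endothelial and barrier genes, out of 32285 genes in the count matrices. Each was read as UMIs (unique molecular identifiers, 1 per captured RNA molecule) in 6 Visium spatial sections of mouse brain. Visium places a section on an array of barcoded spots, and each spot captures RNA from a small patch of tissue that can hold several cells.

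The sections were coronal, 16 µm thick and cut from frozen brains embedded in OCT. All came from male C57BL/6J mice with no transgene or treatment. Young mice were 6 months old, middle-aged mice 18 months and old mice 21 months, with 2 sections per age. The labels give 2 males per age but do not say which section came from which animal, so p-values measure the spread between these sections. Both young sections lay on slide 1 together with middle 1 and old 1. Slide 2 carried only middle 2 and old 2, so age and slide are partly confounded.

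Capillary endothelium in the brain forms a barrier of sealed tight junctions, few transport vesicles, efflux pumps and carriers for selected nutrients. Wnt ligands from neural cells, acting through Frizzled receptors and beta-catenin, induce and keep this programme, and pericytes support it. Cldn5 encodes claudin-5, the main claudin of the endothelial tight junction. Flt1 is VEGF receptor 1, and Ly6c1 is a surface antigen of brain endothelium. Slc2a1 encodes the glucose carrier GLUT1, Slco1a4 an organic anion carrier, Mfsd2a the lysophospholipid carrier for omega-3 fatty acids, which also restrains vesicle transport, and Abcb1a the efflux pump P-glycoprotein. Pltp is a phospholipid transfer protein, Apold1 an early response gene of endothelium, and Itm2a a type II membrane protein.

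Upstream sequences are shown for 4 of these genes, the junction gene, the receptor and the carriers of glucose and lysophospholipid, because they differ in the short motifs they hold. They come from RefSeq on GRCm38.p6 and run 5′ to 3′ on the strand of the gene, and only the part outside annotated exons is printed. The windows are Cldn5 at chr16:18776597-18776846 (plus strand, 250 bases), Flt1 at chr5:147726012-147726261 (minus strand, 250 bases), Slc2a1 at chr4:119108495-119108710 (plus strand, 216 bases) and Mfsd2a at chr4:122961189-122961308 (minus strand, 120 bases). Capitals mark GGAA, the core of ETS factor motifs, ACGTG, the core of the hypoxia response element, CACCC, a core of KLF motifs, and the TATA box TATAAA, each on either strand.
Cldn5: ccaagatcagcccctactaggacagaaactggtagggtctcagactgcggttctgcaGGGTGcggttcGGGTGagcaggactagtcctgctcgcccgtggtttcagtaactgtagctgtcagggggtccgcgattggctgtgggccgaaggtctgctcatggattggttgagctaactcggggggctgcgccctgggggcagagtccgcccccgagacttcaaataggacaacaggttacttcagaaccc
Flt1: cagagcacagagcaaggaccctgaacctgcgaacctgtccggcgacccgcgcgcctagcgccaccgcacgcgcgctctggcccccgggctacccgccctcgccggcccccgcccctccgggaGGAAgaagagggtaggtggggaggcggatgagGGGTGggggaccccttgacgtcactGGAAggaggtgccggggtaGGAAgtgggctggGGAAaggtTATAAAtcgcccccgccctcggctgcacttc
Slc2a1: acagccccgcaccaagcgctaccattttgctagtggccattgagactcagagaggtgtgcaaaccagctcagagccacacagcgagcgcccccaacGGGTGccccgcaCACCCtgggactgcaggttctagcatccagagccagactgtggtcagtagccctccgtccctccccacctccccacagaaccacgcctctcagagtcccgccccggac
Mfsd2a: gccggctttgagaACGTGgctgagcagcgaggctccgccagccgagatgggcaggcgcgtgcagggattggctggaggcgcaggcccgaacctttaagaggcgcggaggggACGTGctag
The printed Flt1 stretch holds 4 GGAA cores and 1 TATAAA, whereas those of Cldn5 and Slc2a1 hold no GGAA and 2 CACCC each. The Mfsd2a stretch holds 2 ACGTG cores. Among the whole upstream windows of 250 bases, GGAA was present for 8 of the 10 genes and in 93.4% of 32851 such windows of the genome. CACCC was present for 8 of 10 genes against 52.0% of windows, ACGTG for 3 of 10 against 16.6%, and TATAAA for 3 of 10 against 12.4%. A match is a run of letters and does not show that a factor binds there.

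All 10 genes are protein coding, and their positions are given on GRCm38. Slc2a1 and Mfsd2a are both on chromosome 4 (119108711 to 119137983 and 122946850 to 122961188), and Slco1a4 and Apold1 are both on chromosome 6 (141805440 to 141856199 and 134981718 to 134986836). Flt1 and Abcb1a share chromosome 5 (147561604 to 147726011 and 8660077 to 8748575). The others are Cldn5 on 16 (18776847 to 18778262), Ly6c1 on 15 (75044018 to 75048830), Pltp on 2 (164839518 to 164857711) and Itm2a on X (107397099 to 107403376).

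Sections held between 60939185 and 77557934 UMIs over 2573 to 2973 spots, and 16741 spots in all were kept. Median UMIs per spot were 30093 and 26305.5 in young, 26099 and 25904.5 in middle-aged and 21766 and 20370 in old sections, so depth was lowest in the old sections. Clusters of spots were named from marker genes of brain regions, with the 10 genes and other vascular genes left out of the clustering. Of 24 clusters 16 took a name, giving 9 regions, and 3737 spots stayed unnamed. Young 1 had 45 hippocampal spots against 167 to 269 in the other sections, so the plane of section differed. Levels below are CPM: each UMI sum was divided by the TMM-adjusted total of its section or region and brought to 1 shared library size. All 24 genes of a list of endothelial identity were detected in every section. In a whole section, fewer endothelial cells and less RNA per cell cannot be told apart.

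The genes were spread over nearly every part of the sections. With each spot thinned to 10000 UMIs, between 93.0% and 94.4% of spots per section held a UMI of at least 1 of the 10 genes, with a median of 3 genes per spot. Between 130 and 350 spots per section were shallower and were left out of this count. Spots with 5 or more of the genes were 19.9% to 21.4% of each section. Slc2a1 was seen in a median of 51.8% of spots over the sections (48.2% to 56.1%), Ly6c1 in 43.6%, Pltp in 41.6%, Cldn5 in 39.4% and Itm2a in 37.5%. Flt1 was seen in 27.1%, Slco1a4 in 20.4%, Abcb1a in 15.6%, Mfsd2a in 12.8% and Apold1 in 8.33% (5.03% to 12.9%). Without thinning the medians ran from 16.2% for Apold1 to 77.5% for Slc2a1. Within the isocortex the variance of thinned UMIs was close to their mean, with median ratios from 1.05 for Apold1 to 1.34 for Ly6c1.

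The 10 genes differed in level between regions. The meninges held the highest mean level of 7 of the 10 genes, namely Cldn5, Flt1, Ly6c1, Slco1a4, Abcb1a, Apold1 and Itm2a. The choroid plexus and ventricle region held the highest level of Slc2a1 and Pltp, and the thalamus that of Mfsd2a. Among the regions of brain tissue itself, thalamus stood above isocortex in 6 of 6 sections for all 10 genes and white matter for 8, the exceptions being Mfsd2a and Apold1. These levels are a description, because the regions come from the same spots. They are shares of a region's RNA, and depth per spot differed between regions. In young 1, 313 white matter spots held 4047370 UMIs, of which 328 were of Cldn5. Its 615 isocortex spots held 25245130 UMIs, of which 972 were of Cldn5. A level above isocortex thus need not be a higher amount per spot.

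For the junction gene Cldn5, mean levels over the 6 sections were 147 ± 26.3 CPM (SD, n = 6) in meninges, 82.8 ± 12.5 in white matter and 74.7 ± 12.9 in thalamus. White matter was above thalamus in only 4 of 6 sections, so these neighbours in the order did not differ beyond their spread. The level was 44.1 ± 5.69 in isocortex and 32.9 ± 8.34, the lowest, in the choroid plexus and ventricle region. That region, called choroid plexus for short below, mixes ventricle wall with plexus. With finer clusters it was made of 250 spots led by Ccdc153, Ttr and Tmem212 and 67 led by Ttr, Ecrg4 and Kl. Capillaries of the plexus itself are fenestrated and its epithelium forms the barrier there. Which cells of the region made the RNA was not tested. Flt1 had the same 3 regions on top at 84.5 ± 14.7, 47.6 ± 5.99 and 43.2 ± 5.39 CPM, and was lowest in amygdala and olfactory cortex at 19.5 ± 4.35. Ly6c1 had its 3 highest levels close together, at 116 ± 33.6 in meninges, 97.9 ± 6.01 in white matter and 94.8 ± 16.5 in thalamus, and its isocortex level was 51.1 ± 4.997.

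Among the carriers, Slc2a1 was highest in choroid plexus at 223 ± 34.5 CPM and stood at 172 ± 52.4 in meninges and 153 ± 21.0 in white matter. Its white matter level was 2.55 ± 0.24 times its isocortex level, beside ratios of 1.77 ± 0.13 for Abcb1a and 1.94 ± 0.19 for Slco1a4. GLUT1 is made by choroid plexus epithelium and glia as well as by endothelium. Slco1a4, which is also made by choroid plexus epithelium, had its highest 2 levels in meninges (55.3 ± 8.36) and choroid plexus (41.1 ± 2.92). Abcb1a had the steepest step, from 88.3 ± 17.3 in meninges to 23.6 ± 1.80 in white matter. It was lowest in choroid plexus at 9.11 ± 1.95, and in isocortex it stood at 13.4 ± 0.34.

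Mfsd2a did not follow the other 9 genes. Its mean level was 22.3 ± 3.14 CPM in thalamus and 15.1 ± 2.91 in hypothalamus, the only regions above the whole section in 6 of 6 sections. White matter held 12.4 ± 1.305, which was below thalamus in 6 of 6 sections at a ratio of 0.56 ± 0.04, and above isocortex in only 4 of 6. Levels from meninges through striatum lay between 12.6 and 11.2 CPM and did not differ beyond their spread, and choroid plexus was lowest at 7.37 ± 4.75.

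Pltp reached 562 ± 60.4 CPM in choroid plexus, 200 ± 24.7 in meninges and 107 ± 11.7 in white matter, against 37.0 ± 2.79 in isocortex. Itm2a stood at 213 ± 23.6 in meninges, and the next region, white matter, at 63.9 ± 8.92. Apold1 was highest in meninges at 26.9 ± 13.9 and second in thalamus at 13.3 ± 4.48. Its white matter level was below thalamus in 6 of 6 sections, as for Mfsd2a, and above isocortex in only 3 of 6. The junction gene and the efflux pump differed from it in both respects.

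**Figure D1:**
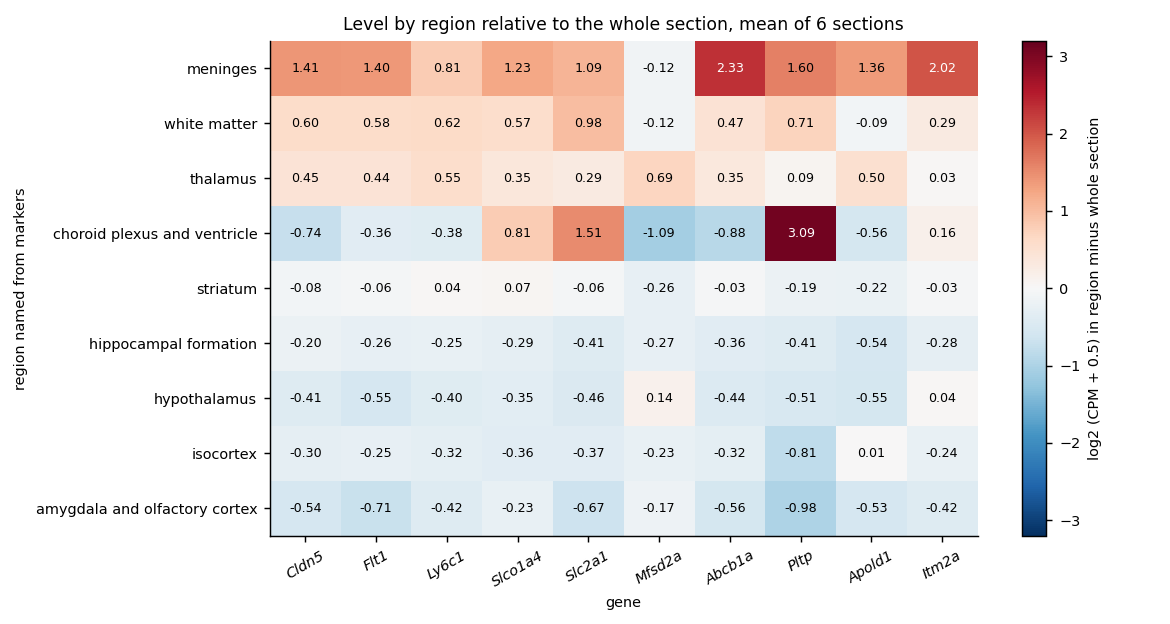
Mean level of each of the 10 genes in the 9 named regions, as log2 of the ratio to the whole section, over 6 sections. Meninges stand highest for 7 genes, choroid plexus for Slc2a1 and Pltp, and Mfsd2a stands apart with thalamus highest.

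With age, none of the 10 genes passed the test in whole sections. Tests were edgeR's quasi-likelihood test on UMIs summed per section, adjusted by Benjamini-Hochberg over 17673 genes, with a threshold of 0.05. Old against young called 0 of the 10 genes, where 0.164% of all genes tested were called (29 genes). Middle-aged against young called 0 of 10 against a background of 0.0679% (12 genes). Old against middle-aged called 0 genes of any kind by edgeR and 0 by DESeq2, while 361 had an unadjusted p under 0.05. The slope over age called 0 of 10, where 0.724% of genes were called. The median log2 change of the 10 genes was -0.12 for old against young and -0.07 for middle-aged against young, and close to 0 over all genes.

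Cldn5 had 48.6 and 44.4 CPM in young, 63.8 and 59.6 in middle-aged and 56.4 and 53.5 in old sections. Both older groups lay above young with no overlap, and middle-aged sections were highest. The log2 change was 0.41 (SE 0.06, edgeR adjusted p = 0.126) for middle-aged and 0.24 (SE 0.06, adjusted p = 0.240) for old against young. By region the log2 change of Cldn5 was above 0 in 9 of 9 regions in both comparisons, and none was called. For middle-aged it ran from 0.27 in meninges to 0.67 in amygdala and olfactory cortex. For old it was as low as 0.026 in choroid plexus. The regions come from the same sections, so their directions are not independent. At middle age the isocortex change was called under 5 of 13 alternatives, namely without the filter on low counts (0.38, edgeR adjusted p = 0.000125), with slide (0.45, 0.0391) or the replicate number (0.38, 0.0341) as a block, with coarser clusters (0.41, 0.0318) and without young 1 (0.44, 0.0347). The thalamus change was called without the filter (0.50, 0.00574). Calls of all genes, summed over the regions, also rose without the filter, as given below. DESeq2 called the middle-aged change in whole sections (log2 change 0.41, adjusted p = 0.000558), as did edgeR without the filter on low counts (adjusted p = 0.0199). The slope of Cldn5 over age was also called by DESeq2 (adjusted p = 0.0486).

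Flt1 had 32.5 and 33.3 CPM in young, 32.1 and 30.2 in middle-aged and 29.9 and 30.3 in old sections. Its old values lay below the young values by a small step, at a log2 change of -0.13 (SE 0.05, edgeR adjusted p = 0.367). Ly6c1 had 53.5 and 61.5 CPM in young, 66.0 and 71.1 in middle-aged and 60.9 and 70.4 in old sections. Old and young overlapped, and the log2 change was 0.19 (SE 0.09, edgeR adjusted p = 0.434). The log2 change of Ly6c1, like that of Cldn5, was above 0 in 9 of 9 regions in both comparisons with no region called.

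The carriers of nutrients and lipids were lower in the older groups, by amounts that did not pass the test. Slc2a1 had 80.0 and 90.5 CPM in young, 71.0 and 73.9 in middle-aged and 71.2 and 78.2 in old sections. Every older section was below both young ones, at a log2 change of -0.23 (SE 0.08, edgeR adjusted p = 0.509) for middle-aged and -0.19 (SE 0.08, adjusted p = 0.358) for old. Mfsd2a had 14.3 and 17.1 CPM in young, 13.4 and 13.7 in middle-aged and 11.2 and 11.9 in old sections. Its groups were ordered by age with no overlap, and it had the smallest adjusted p of the 10 genes for the slope, -0.31 per year on the log2 scale (SE 0.08, edgeR adjusted p = 0.116). For old against young the log2 change of Mfsd2a was -0.44 (SE 0.10, edgeR adjusted p = 0.157), which DESeq2 called (adjusted p = 0.0383). DESeq2 also called its slope (adjusted p = 0.0298), which was -0.43 per year in edgeR without young 1.

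Slco1a4 had 26.0 and 23.7 CPM in young, 22.9 and 22.8 in middle-aged and 21.7 and 21.8 in old sections. The step was small and regular, at a log2 change of -0.19 (SE 0.06, edgeR adjusted p = 0.287) for old against young. Abcb1a, the efflux pump, had 17.7 and 16.1 CPM in young, 16.9 and 17.4 in middle-aged and 17.3 and 15.8 in old sections. These groups overlapped throughout, and the log2 change for old was -0.03 (SE 0.08, edgeR adjusted p = 0.922).

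Pltp had 61.4 CPM in both young sections, 64.8 and 67.9 in middle-aged and 66.9 and 68.2 in old ones. Its change for old against young was 0.14 on the log2 scale (SE 0.05, edgeR adjusted p = 0.332). It turned to -0.02 when equal numbers of spots of each region were drawn from every section. Itm2a had 57.1 and 50.9 CPM in young, 52.8 and 50.1 in middle-aged and 49.9 and 49.4 in old sections, at -0.12 (SE 0.06, edgeR adjusted p = 0.471) for old.

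**Figure D2:**
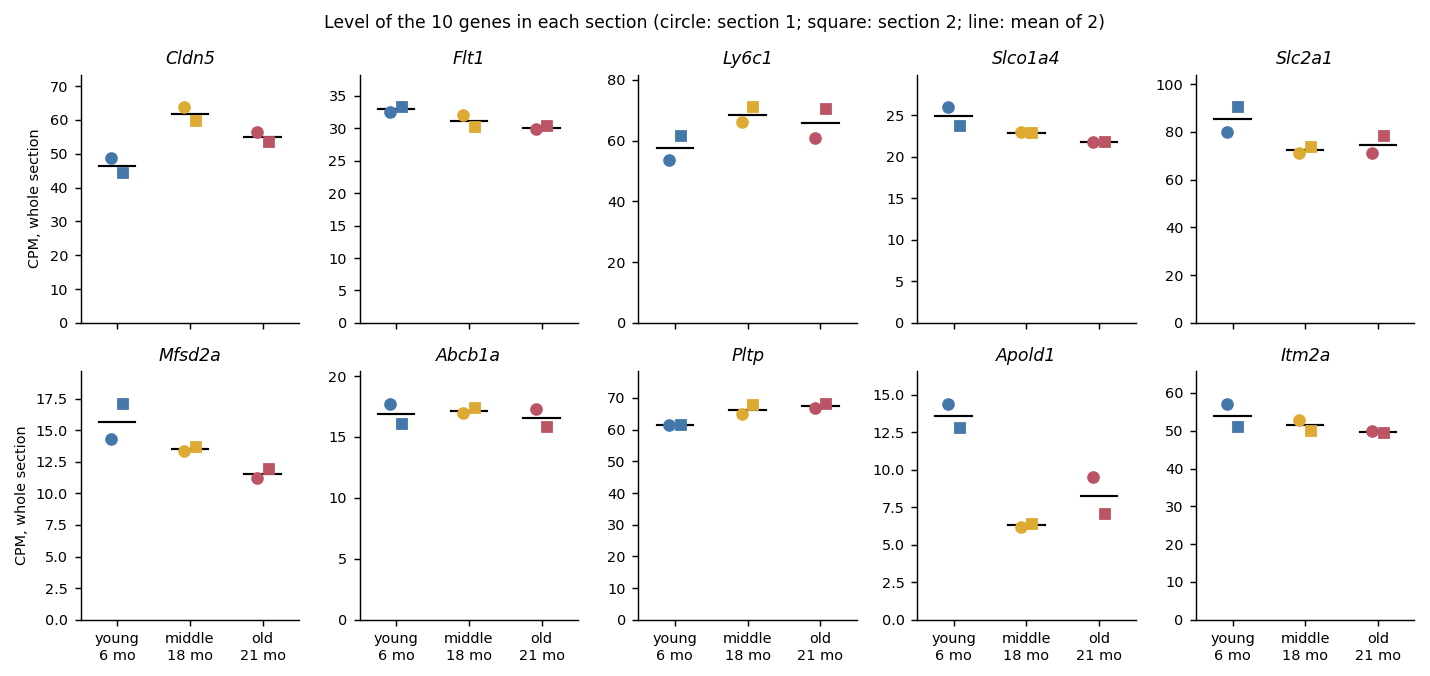
Level of each of the 10 genes in the whole of each section, in CPM by age group, with points for single sections. Apold1 is the gene whose older sections lie farthest below the young ones, and Cldn5 is above young in all 4 older sections.

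Apold1 had the largest difference of the 10 genes. Its levels were 14.4 and 12.8 CPM in young, 6.19 and 6.41 in middle-aged and 9.51 and 7.03 in old sections. Middle-aged sections were lowest and no older section reached a young one. The log2 change was -1.11 (SE 0.14, edgeR adjusted p = 0.0705) for middle-aged and -0.71 (SE 0.14, adjusted p = 0.129) for old against young. On slide 1 alone, which held both young sections, middle 1 and old 1 showed the same order. DESeq2 called both, with adjusted p-values of 2.02e-08 and 0.00281. For middle-aged against young, edgeR called Apold1 with only the groups compared (adjusted p = 0.0262) and with equal numbers of spots per region (adjusted p = 0.0353). It also did so without the filter on low counts. Leaving out any 1 section gave log2 changes from -1.19 to -1.02 at middle age.

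Groups without overlap were common among all genes. Of the 10 genes, 6 were lower in both old than in both young sections, against 22.3% of all genes, and 2 were higher, against 21.5%. The 6 were Flt1, Slco1a4, Slc2a1, Mfsd2a, Apold1 and Itm2a, and the 2 were Cldn5 and Pltp. For middle-aged against young 5 were lower (18.8% of all genes) and 3 higher (19.1%), and for old against middle-aged 4 were lower (16.2%) and 1 higher (16.5%).

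**Figure D3:**
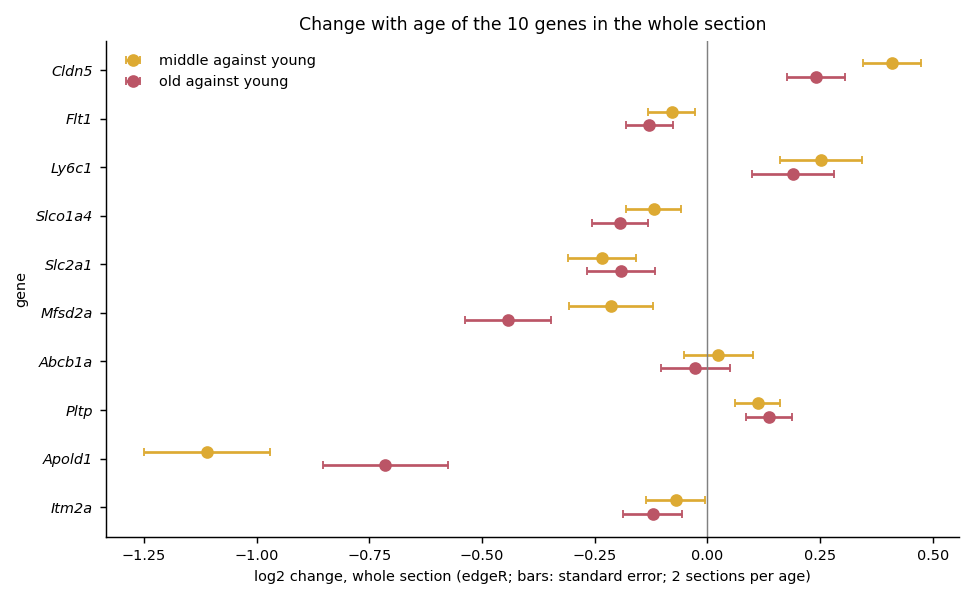
Log2 change of each of the 10 genes in whole sections for old and for middle-aged against young, with bars of 1 SE. Apold1 lies lowest in both comparisons and Cldn5 highest, and no gene passed the threshold in edgeR's test.

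Within regions, the log2 change of Apold1 was below 0 in 9 of 9 regions in both comparisons with young, and it passed the test in 4 regions at middle age and 1 at old age. At middle age it was called in isocortex (log2 change -1.04, SE 0.15, edgeR adjusted p = 0.00845), hypothalamus (-1.48, SE 0.24, adjusted p = 0.0363), meninges (-1.57, SE 0.38, adjusted p = 0.0159) and white matter (-1.37, SE 0.28, adjusted p = 0.0158). The share of all genes called in these comparisons was 0.157%, 0.0427%, 0.444% and 2.8%. In the other 5 regions at middle age 0 of the 10 genes were called, where the share of all genes was 0.0363% in thalamus, 0.0649% in striatum, 0.0849% in choroid plexus, 0.0184% in amygdala and olfactory cortex and 0% in hippocampal formation. In old against young it was called in white matter (-1.19, SE 0.28, edgeR adjusted p = 0.0302), where 1.71% of genes were called. The other 8 regions called 0 of the 10 genes for old against young, beside shares of all genes of 0.242% in isocortex, 0.058% in thalamus, 0.0498% in hypothalamus, 0.13% in striatum, 0.476% in meninges, 0.0425% in choroid plexus, 0.0368% in amygdala and olfactory cortex and 0% in hippocampal formation. In amygdala and olfactory cortex it was -0.06 for middle age and turned to 0.11 without young 1 and 0.28 without middle 2.

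In isocortex Apold1 stood at 12.9 and 12.5 CPM in young, 5.602 and 6.84 in middle-aged and 10.8 and 7.71 in old sections. Middle-aged sections lay lowest and the old ones between. In hypothalamus it was 9.80 and 12.9 in young, 3.94 and 4.06 in middle-aged and 4.24 and 4.68 in old sections, so both older groups lay close together and below young. In white matter it was 17.2 and 13.5 in young, 6.79 and 5.01 in middle-aged and 8.88 and 4.61 in old sections, resting on 20 to 66 UMIs per section. In meninges it was 48.0 and 29.9997 in young, 19.2 and 9.05 in middle-aged and 35.6 and 19.3 in old sections, resting on 7 to 58 UMIs, and the old values overlapped the young.

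Thalamus had 21.2 and 15.5 CPM in young, 9.82 and 9.85 in middle-aged and 13.3 and 10.3 in old sections, with a log2 change of -0.88 for middle age (SE 0.20, edgeR adjusted p = 0.552). Striatum had 14.4 and 11.1 in young, 5.23 and 6.91 in middle-aged and 5.84 and 5.43 in old sections, at -1.08 (SE 0.26, edgeR adjusted p = 0.359). Both older groups lay below young there too. Calls were gained in 3 other regions at middle age. Without the filter on low counts edgeR called Apold1 in thalamus (adjusted p = 0.000417), hippocampal formation (-1.37, 0.00252) and striatum (0.0496). Without young 1 the change in hippocampal formation was -1.54, and without young 2 that in striatum was -1.21, in fits that left 1 young section. For old against young it was called without the filter in hypothalamus (-1.33, edgeR adjusted p = 0.000431), striatum (-1.24, 0.0168) and isocortex (-0.44, 0.0460). It was also called in hypothalamus with the replicate number as a block (-1.33, edgeR adjusted p = 0.0191). In striatum the change was -1.36 without young 2. Calls of all genes, summed over the regions, rose as well without the filter, as given below.

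Single sections carried several of these calls. The isocortex change was -0.89 without middle 1 (adjusted p = 0.101). The hypothalamus call was lost without young 2 (-1.29, adjusted p = 0.152), middle 1 (-1.46, 0.322) or middle 2 (-1.50, 0.325), under DESeq2 (-1.50, 0.155) and with finer clusters (-1.54, 0.0587). The meninges call was lost without young 1 (-1.14, 0.627) or middle 2 (-1.09, 0.783) and under DESeq2 (-1.51, adjusted p = 1). In white matter the middle-aged call was lost without young 1 (-1.18, 0.120) or middle 2 (-1.17, 0.288). The old call in white matter was lost without young 1 (-1.02, 0.214), middle 1 (-1.19, 0.0591), middle 2 (-1.19, 0.0589) or old 2 (-0.79, 0.350), under DESeq2 (-1.19, 0.296) and with white matter taken as the spots richest in myelin genes (-0.89, 0.114). With slide as a term in the model none of the 5 calls passed, with log2 changes of -0.98, -1.53, -1.12, -1.06 and -0.88 and adjusted p-values of 0.0550, 0.141, 0.693, 0.0770 and 0.212 in the order isocortex, hypothalamus, meninges, white matter at middle age and white matter at old age.

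**Figure D4:**
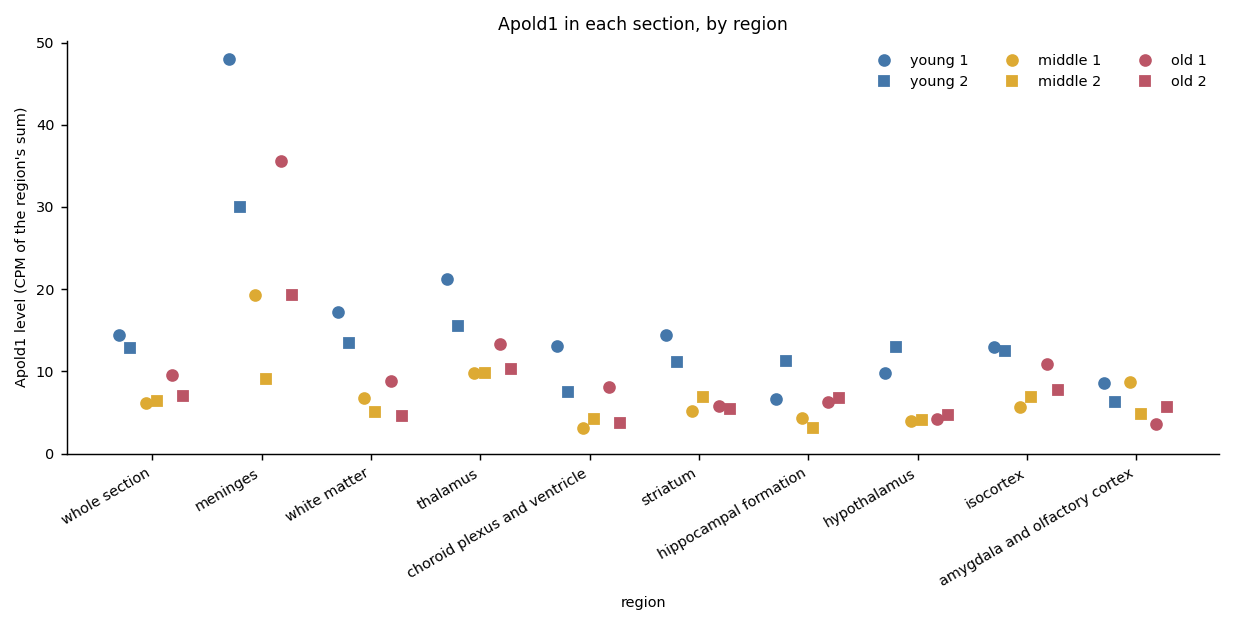
Apold1 level in CPM in each named region, by age group, with 1 point per section. Middle-aged sections lie below both young sections in isocortex, hypothalamus, white matter, meninges, thalamus and striatum.

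Whether a change was particular to a region was tested as the difference between its change and that of all other spots. For old against young in white matter, 0 of the 10 genes were called where 1.07% of genes were called, and Apold1 had the smallest adjusted p (difference -0.49, SE 0.26, edgeR adjusted p = 0.520). Over 9 regions and both comparisons with young, 1 of 180 such tests of the 10 genes was called, where these tests called between 0% and 4.29% of all genes. That was Abcb1a in amygdala and olfactory cortex at middle age (difference 1.39, SE 0.33, edgeR adjusted p = 0.0104, with 0.294% of genes called), on 12 to 32 UMIs per section and lost without young 2 (1.57, 0.444), middle 1 (1.57, 0.0549) or middle 2 (1.198, 0.741). So the Apold1 calls in 4 regions are not shown to differ from the change elsewhere.

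Slc2a1, the glucose carrier, was the only other gene of the 10 called in a region with the settings given above. It fell in white matter at middle age, from 183 and 174 CPM in young to 133 and 137 in middle-aged sections, with 139 and 154 in old ones. The log2 change was -0.40 (SE 0.10, edgeR adjusted p = 0.0282), and for old against young -0.29 (SE 0.09, adjusted p = 0.161). All older sections were below both young ones. The call was lost without young 1 (-0.36, 0.175), young 2 (-0.44, 0.0510), middle 1 (-0.38, 0.113) or middle 2 (-0.42, 0.236), under DESeq2 (-0.40, 0.0544) and with slide as a term (-0.45, 0.0540). In isocortex the middle-aged change was called without the filter on low counts (-0.26, edgeR adjusted p = 0.0165) and without young 1 (-0.38, 0.0170). The log2 change of Slc2a1 was below 0 in 9 of 9 regions for old and in 7 of 9 for middle age, in regions of the same sections.

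Mfsd2a was tested in 8 regions and had a log2 change below 0 in 7 of them for old against young, with 0 called. In isocortex it had 12.8 and 14.5 CPM in young, 11.6 and 11.3 in middle-aged and 10.7 and 8.57 in old sections (old against young -0.49, SE 0.12, edgeR adjusted p = 0.160), a change that was called without the filter on low counts (adjusted p = 0.00899). In thalamus, its highest region, it had 23.5 and 26.3 in young, 23.0 and 23.8 in middle-aged and 17.5 and 19.8 in old sections (-0.43, SE 0.13, edgeR adjusted p = 0.877). Old sections were lowest in both regions. 

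Set against the summed level of endothelial identity genes, the older sections lay below both young ones for Apold1, Slc2a1, Mfsd2a, Flt1, Slco1a4 and Itm2a. They lay above both for Cldn5 and overlapped the young ones for Ly6c1, Abcb1a and Pltp. The share of all genes without overlap was not computed for these ratios. The sum was taken over 23 of the 24 endothelial identity genes, without Bsg, whose level alone exceeds that of the other 23 together. It was 249 and 250 CPM in young, 266 and 258 in middle-aged and 257 and 270 in old sections. The sum was thus higher in every older section, which lowers each ratio. It holds Sox17 and Egfl7, whose rise over age is given below, and does not measure the number of endothelial cells. Per 100 UMIs of those genes, Apold1 had 5.79 and 5.11 UMIs in young, 2.33 and 2.48 in middle-aged and 3.70 and 2.61 in old sections. Cldn5 had 19.6 and 17.8 in young, 24.0 and 23.1 in middle-aged and 22.0 and 19.8 in old sections. Slc2a1 had 32.2 and 36.2, then 26.7 and 28.6, then 27.7 and 29.0. Mfsd2a had 5.74 and 6.84, then 5.03 and 5.30, then 4.36 and 4.42. The sum of the 10 genes themselves stayed between 395 and 413 CPM in all sections.

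Several of the 10 genes have near copies with which reads could be shared, so their counts are uncertain to that extent. Ly6c2 was at 0.0808 to 0.236 CPM, far below its neighbour Ly6c1, and Slco1a5 was at 0.144 to 0.404. Abcb1b, the second rodent P-glycoprotein gene, was at 1.62 to 1.98 CPM, and Cldn3 at 0.254 to 0.472. The other VEGF receptors Kdr (6.77 to 8.95 CPM) and Flt4 (1.149 to 1.51) and the related carrier Slco1c1 (35.6 to 41.5) were measured on their own. Ly6a had 36.8 and 44.5 CPM in young, 46.2 and 50.6 in middle-aged and 44.1 and 54.2 in old sections, an order like that of Ly6c1. Itm2b (835 to 876), Itm2c (673 to 695) and Ly6e (179 to 208) are related by family. Of 13 near copies 11 were tested and 0 were called in either comparison with young.

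Lists of the wider endothelial programme showed few called genes. They were read in whole sections that hold all cell types, and which cells made their RNA was not tested. Of 24 endothelial identity genes 0 were called in either comparison, with medians of 0.10 for middle-aged and 0.06 for old on the log2 scale. The most abundant were Bsg, basigin (520 and 493 CPM in young, 533 and 544 in old sections), and Egfl7, a secreted vessel factor. Over the 3 ages 2 of the 24 were called as rising, where 0.724% of all genes were called in either direction. These were Sox17, an arterial transcription factor, at 0.58 per year on the log2 scale (edgeR adjusted p = 0.0203), and Egfl7 at 0.20 per year (adjusted p = 0.0496). Sox17 had 3.06 and 3.19 CPM in young, 5.11 and 4.65 in middle-aged and 5.06 in both old sections. Egfl7 had 37.1 and 34.0, then 40.7 and 40.9, then 42.4 and 42.5. Sox17 was lost without young 1 (adjusted p = 0.0531), middle 2 (0.0797), old 1 (0.0549) or old 2 (0.0910) and with slide as a term (0.0981). Egfl7 was lost without any 1 section but young 1 (0.0699 to 0.197) and under 5 other alternatives (0.0551 to 0.217).

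Of the other barrier groups, tight and adherens junctions had 0 of 14 genes called in either comparison with young, with medians of -0.03 and -0.04 for middle-aged and old. Ctnnb1, beta-catenin, stood at 292 and 335 CPM in young and 314 and 306 in old sections, and the angiomotin-like scaffold gene Amotl1 at 36.1 and 52.5 against 40.0 and 42.1. Barrier transporters and receptors had 0 of 24 called, with medians of -0.06 and -0.07. The receptor Lrp1 stood at 176 and 168 CPM in young and 168 and 176 in old sections, and Slc3a2, the heavy chain of amino acid carriers, at 84.1 and 90.1 against 85.4 and 86.2. Endothelial Wnt signalling had 0 of 17 called, with Lrp6 at -0.09 and the ligand gene Wnt7b at 0.00 on the log2 scale for old against young.

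VEGF and Notch signalling had 0 of 16 called, with Vegfb at 0.13 and Hey1 at -0.10 for old against young on the log2 scale. Vesicle transport genes had 0 of 7 called, with a median of 0.15 for old, and the dynamin gene Dnm2 at 0.11 and Cav2 at -0.03. Genes of arterial, capillary and venous segments had 0 of 15 called against young, with Spock2 at 0.02 and Nr2f2 at 0.01 for old. Spock2 alone held 186 and 239 CPM of this list's 379 and 455 CPM in young sections. Over the 3 ages Fbln5, an arterial elastic fibre gene, rose at 0.44 per year (edgeR adjusted p = 0.0413), from 5.46 and 5.32 CPM in young to 6.74 and 6.97 and then 8.64 and 7.68. That call was lost without any 1 section (adjusted p 0.0612 to 0.152) and under 3 other alternatives (0.0591 to 0.157).

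Of the endothelial activation list 10 of 12 genes were tested and 1 was called in each comparison with young, with medians of -0.02 at middle age and 0.03 at old age. This was Icam1. Icam1, the adhesion molecule for leukocytes, had 6.59 and 6.06 CPM in young, 1.85 and 2.67 in middle-aged and 2.00 and 2.36 in old sections. It fell by 1.48 on the log2 scale at middle age (edgeR adjusted p = 0.0479) and by 1.54 at old age (adjusted p = 0.0293). Selplg and Ackr1, the most abundant of the list, were at 0.27 and -0.03 for old against young. The slope of Icam1 was called under every alternative run. The old call was lost without young 1 (-1.48, adjusted p = 0.0646), old 1 (-1.42, 0.147) or old 2 (-1.66, 0.209) and after thinning sections to the smallest total (0.0542). The middle-aged call was lost without any 1 section (0.0642 to 0.253) and under 5 other alternatives (0.0503 to 0.119), among them slide as a term (0.0572) and thinning (0.0990). Vcam1, another adhesion molecule, fell over the 3 ages at -0.51 per year (edgeR adjusted p = 0.0461), with 27.4 and 23.8 CPM in young, 15.9 and 18.2 in middle-aged and 15.5 and 18.5 in old sections. That call was lost without young 1 (-0.41, 0.0924), middle 1 (-0.48, 0.0629), middle 2 (-0.51, 0.127) or old 1 (-0.48, 0.125), and with slide as a term (0.0556), the replicate number as a block (0.0691) or thinning (0.0512).

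In white matter, where 2.8% of genes were called at middle age and 1.71% at old age, few vascular genes passed. At middle age Sox18, an endothelial transcription factor, rose by 1.60 on the log2 scale (edgeR adjusted p = 0.0198), while Icam1 fell by 1.79 (adjusted p = 0.00405), the tip cell gene Apln by 0.58 (adjusted p = 0.0448) and the Wnt target Nkd1 by 0.47 (adjusted p = 0.0486). At old age the progenitor and endothelial antigen Cd34 rose by 0.63 (adjusted p = 0.0364) and Apln fell by 0.66 (adjusted p = 0.0280). Sox18 was lost without young 1 (1.43, 0.138) or middle 2 (1.44, 0.276). DESeq2 called none of Cd34, Apln and Nkd1. With slide as a term the middle-aged calls of Sox18 (0.0757), Apln (0.0649) and Nkd1 (0.115) and the old call of Cd34 (0.241) were lost. Apln at middle age was also lost without young 1 (-0.33, 0.437), middle 1 (-0.51, 0.232) or middle 2 (-0.66, 0.288), and at old age without any 1 section but young 2 (0.0628 to 0.376, with -0.42 without young 1). Cd34 was lost without any 1 section but old 1 (0.0650 to 0.358) and Nkd1 without any 1 section (0.0529 to 0.405). Microglial genes rose in white matter of old sections in 4 of 8 cases, among them C1qa by 1.23, Cx3cr1 by 0.94 and Csf1r by 0.57. The white matter values of Icam1 and of the microglial genes were not rerun under the alternatives.

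Markers of other vessel cells, glia and blood held no called gene in whole sections. Pericyte and smooth muscle genes had 0 of 16 called, with 13 above 0 and a median of 0.20 for old against young, and Vtn and Rgs5 at 0.17 and 0.05. Lists of 8 fibroblast, astrocyte, microglial, choroid plexus and blood cell genes had 0 called each. For old against young, Dcn and Col1a2 of fibroblasts were at -0.17 and -0.19 on the log2 scale, Slc1a2 and Aldoc of astrocytes at -0.12 and 0.02, C1qa of microglia at 0.60, and Ttr and Kl of choroid plexus at 0.41 and -0.11. All 8 blood cell genes were below 0 at middle age with a median of -1.14, among them Hbb-bs at -1.65 and Hba-a2 at -0.99. Their summed level was 69.4 and 46.4 CPM in young, 33.0 and 15.0 in middle-aged and 69.6 and 48.6 in old sections.

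Beside the Apold1 result stood changes in genes that respond quickly to handling, temperature and stress hormones. Their list, like the others, was chosen with earlier results of these data known. Of 14 such genes 4 were called lower at middle age and 5 at old age, with list medians of -0.42 and -0.46. The shares of all genes called in either direction were 0.0679% and 0.164%. Hspa1a, a heat shock gene, had 55.6 and 56.5 CPM in young, 16.4 and 17.2 in middle-aged and 18.3 and 15.3 in old sections, a fall of 1.74 on the log2 scale in both comparisons (edgeR adjusted p = 0.000465 and 0.000491). Hspa1b fell by 1.75 and 1.86 (adjusted p = 0.00705 and 0.00376), Nfkbia by 0.89 and 0.82 (0.00191 and 0.00355) and Dnajb1 by 0.78 and 0.74 (0.0479 and 0.0365). Sgk1, a glucocorticoid target, fell by 1.21 at old age (adjusted p = 0.0472).

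Hspa1a kept both calls against young under every alternative run. Hspa1b at middle age was lost without middle 1 (adjusted p = 0.118) or middle 2 (0.124), and Nfkbia without middle 1 (0.0640). Sgk1 was lost without young 1 (0.0573), young 2 (0.0541), old 1 (0.260) or old 2 (0.387), and under 4 other alternatives (0.0513 to 0.0922), among them slide as a term (0.0791). Dnajb1 at old age was lost without any 1 section but old 1 (0.0693 to 0.160) and under 4 other alternatives (0.0602 to 0.182, the highest with slide as a term). At middle age it was lost without young 1 (0.0855), young 2 (0.137), middle 1 (0.382) or middle 2 (0.306), and under 6 other alternatives (0.0526 to 0.261, the highest with slide as a term).

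The summed level of the 14 handling genes was 1929 and 2108 CPM in young, 1729 and 1655 in middle-aged and 1756 and 1751 in old sections. In white matter it was 4045 and 4812 in young, 3000 and 2993 in middle-aged and 3377 and 3844 in old sections. The log2 changes of Hspa1a there were -3.38 for middle-aged and -3.53 for old against young. Of 15 immediate early genes 0 were called, 14 were below 0 at middle age and 12 at old age, with medians of -0.18 and -0.17. Egr1, a transcription factor, had 346 and 385 CPM in young, 311 and 293 in middle-aged and 306 and 269 in old sections, and Arc, a synaptic gene, had 166 and 236, then 137 and 152, then 141 and 129. The part of handling, early response and blood content in the Apold1 difference was not tested.

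**Figure D5:**
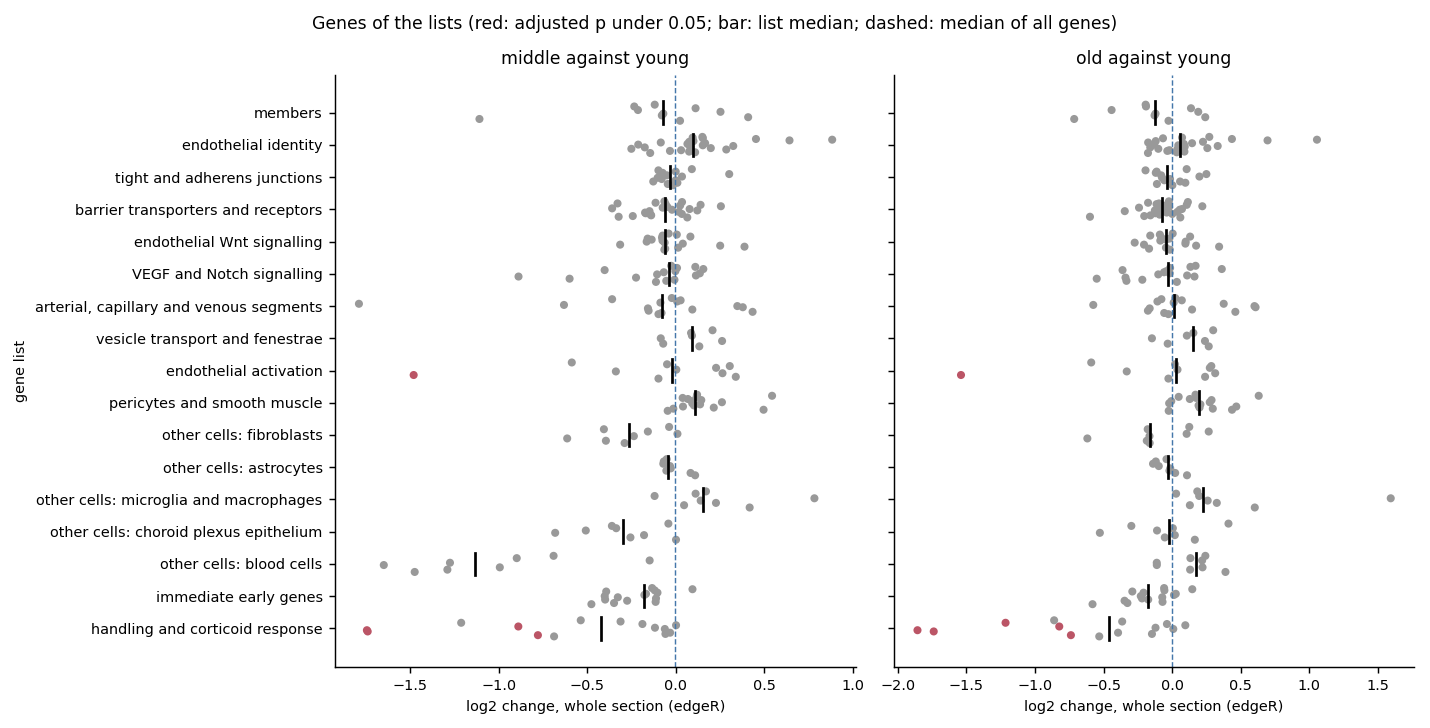
Log2 changes of the genes of each list in whole sections for old and for middle-aged against young, 1 point per gene with the list median. The handling list has the lowest medians in old against young, and the barrier lists lie close to 0.

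The 10 genes shared their spots only weakly. Over the 45 pairs of genes, correlations across spots within a section had a median of 0.20, from 0.02 for Mfsd2a with Pltp to 0.35 for Cldn5 with Ly6c1. Spots of a section share a library, and counts per spot were low. The genes outside the 10 most like their sum across spots were Ly6a (r = 0.447), Apoe (0.432), Bsg (0.390), Ifitm3 (0.389) and Ptgds (0.379), as means over 6 sections. For single genes, Cldn5 was most like Ly6a (0.349), Klf2 (0.273) and Bsg (0.256). Apold1 was most like Klf2, Ly6a and Rgs5, and Pltp like Ifitm3, Vim and Ecrg4. Mfsd2a was most like Adarb1 (0.122), Prkcd (0.120) and Ntng1 (0.116), all markers of thalamus.

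Across 54 region and section values, the genes most like the mean of the 10 were Epas1 (r = 0.940), Srgn (0.930), Igfbp5 (0.929), Golim4 (0.925) and Klf2 (0.924). These points share libraries and regions, so r is a description. Of the 10 genes Flt1 was closest to that mean (0.912) and Mfsd2a farthest from it (0.142).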

How the data were processed

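The authors deposited raw UMI counts of 32285 genes per spot. Per the file headers, the software was Space Ranger 1.3.1. The submitters' processing notes list Space Ranger 3.1 and mm10, and how the 2 versions relate is not given in the sources used here. From the deposited counts, spots under 500 UMIs were left out (1 each in middle 2 and old 2), and the others clustered with scanpy 1.11.5 (2000 variable genes, 30 principal components, 20 neighbours, Leiden resolution 0.8).

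A cluster took a region's name where at least 3 markers of the region were among its first 50 leading genes, at least 3 among the first 10, and at least 2 times as many as for the next region. The limit on the first 10 was set after the clusters had been seen. Spots can hold several cells, and no doublet caller was run.

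UMIs were summed per section and per region and section, and tested with edgeR 4.0.16 (quasi-likelihood, robust, TMM, filterByExpr) with R 4.3.3, age as the term and Benjamini-Hochberg adjustment over all genes tested. DESeq2 1.42.0, no filter, other filters, thinning, slide or replicate number as a block, equal regions, other resolutions and leaving out each section were alternatives. The fit was also run on simulated counts drawn without effects of slide or plane of section, so that run does not test how the fit handles these. Replicates of a group differed beyond sampling noise (chi-square per degree of freedom 45.6, 32.6 and 24.0). Same-numbered sections had deviations that correlated at 0.08 for young with middle-aged, 0.32 for young with old and 0.46 for middle-aged with old over 9589 genes. Same-numbered middle-aged and old sections shared a slide, whereas both young sections lay on slide 1. The main fits did not pair sections by these numbers. Pairs of sections shared 2082 to 2826 barcodes, which mark array positions used on every slide.

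The 10 genes and all lists were chosen with earlier results of these data known. The differences between a region and all other spots were added after values by region had been seen. Named beside the 10 genes are their near copies, up to 4 called genes per list and otherwise its 2 most abundant, and the genes of most like pattern. A gene that this rule names is not reported here. Of 32285 identifiers 32158 matched GENCODE M21. Neither UMIs from free RNA nor spread of RNA between spots was measured. Protein sequences were not used here, and the upstream window of Apold1 lies in an annotated exon and is not printed.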

Additional observations from a re-analysis of the deposited data

Results flagged for a closer look

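The change of Abcb1a, the efflux pump P-glycoprotein, at middle age differed between amygdala and olfactory cortex and all other spots. In that region its levels were 7.35 and 8.07 CPM in young, 18.0 and 24.0 in middle-aged and 10.9 and 7.17 in old sections. Both middle-aged sections lay above all others, while whole sections held 15.8 to 17.7 CPM at every age. The difference of the log2 change, region minus all other spots, was 1.39 (SE 0.33, edgeR adjusted p = 0.0104), in a test that called 0.294% of all genes, and it is listed here because the difference itself passed the test.

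These values rest on 12 to 32 UMIs and 34 to 109 spots per section, and the test was 1 of 180 of the same family for the 10 genes, chosen after values by region had been seen. The difference was 1.42 with DESeq2 (adjusted p = 1), 1.57 without young 2 (edgeR adjusted p = 0.444), 1.57 without middle 1 (0.0549) and 1.198 without middle 2 (0.741), all above the threshold of 0.05. Within the region alone the change of Abcb1a was 1.41 (SE 0.33, edgeR adjusted p = 0.153) for middle-aged and 0.15 (SE 0.35, adjusted p = 1) for old against young.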

How the results depend on the processing

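Over 171 results 2308 alternative values were computed, 30 of them added after the data had been seen, and 1870 kept their direction, side of the threshold or size. These include results that were not called and stayed so. Of the 6 calls of Apold1 and Slc2a1 in regions 0 were kept under every alternative, and of 33 calls of single genes 6 were. For old against young, DESeq2 called 194 genes in whole sections, no filter 113, slide as a block 7 and only the groups compared 7. For middle-aged against young these counts were 70 with DESeq2, 58 without a filter, 6 with at least 10 UMIs in every section, 3 with slide as a block, 6 after thinning and 7 without meninges and choroid plexus spots. For the slope they were 341 with DESeq2, 220 without a filter, 23 with slide as a block and 79 with equal regions. Members called were 2 with DESeq2 in each of these 3 comparisons. For middle-aged against young they were also 2 without a filter, 1 with only the groups compared and 1 with equal regions.

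Calls were summed over the 9 regions, so a gene can count in several of them. Old against young gave 344 calls, 190 with DESeq2, 1389 without a filter and 194 with slide as a block. Middle-aged against young gave 461 calls, then 244, 1432 and 190. Calls of the 10 genes were 0, 5 and 0 for old, and 1, 15 and 2 for middle age, in the same order. The difference between white matter and other spots called 86 genes with DESeq2 and 380 with white matter taken as the tenth of spots richest in myelin genes.

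Replicate numbers were also slide numbers for the middle-aged and old sections, whereas both young sections lay on slide 1. They thus could not pair all sections. With slide or replicate number as a block, old against middle-aged did not call Apold1, Cldn5 or Mfsd2a in whole sections. With the replicate number as a block the slope called 76 genes in place of 128. Old against young, summed over the regions, then gave 2 calls of the 10 genes in place of 1, both of Apold1.

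Leaving out 1 section gave 6 (without old 2) to 75 genes (without young 2) for old against young, 1 (without middle 1) to 33 (without young 1) for middle-aged against young, 0 to 1 for old against middle-aged and 24 (without middle 2) to 318 (without young 2) for the slope. Of the 10 genes it called 0 to 1 for middle-aged against young and 0 to 1 for the slope. Over the regions it gave 160 to 2323 genes and 0 to 5 of the 10 genes for old, and 106 to 1658 genes and 1 to 10 of the 10 genes for middle age, a total over regions. The white matter difference called 64 (without old 2) to 199.

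Directions turned in 15 values, for changes with a main value of at most 0.21 in size. In whole sections these were Abcb1a for the slope (0.0068 with slide as a block, 0.017 without meninges and choroid plexus) and Pltp for old (-0.018 with equal regions). Leaving out 1 section gave, with the sections that turned the sign, Abcb1a -0.097 to 0.046 for old (young 1 and old 2), -0.047 to 0.097 for middle age (young 2) and -0.071 to 0.049 for the slope (young 1 and old 2), and Itm2a -0.15 to 0.015 at middle age (young 1). By region it gave Apold1 -0.56 to 0.28 in amygdala and olfactory cortex at middle age (young 1 and middle 2), Slc2a1 -0.14 to 0.070 in thalamus at middle age (young 2), Cldn5 -0.032 to 0.47 in white matter for old (young 2), Mfsd2a -0.066 to 0.015 in white matter at middle age (young 2) and the white matter difference of Slc2a1 -0.21 to 0.045 (young 1).

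At 5000 UMIs per spot, detection fell to 24.1% for Cldn5, 15.5% for Flt1, 27.3% for Ly6c1, 11.4% for Slco1a4, 32.9% for Slc2a1, 6.87% for Mfsd2a, 8.73% for Abcb1a, 26.2% for Pltp, 4.51% for Apold1 and 22.6% for Itm2a. In meninges Apold1 rests on as few as 7 UMIs in a section. The causes of these changes were not tested.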
